A study of Homo sapiens with 12 samples.

Results

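Interferon-stimulated antiviral genes were followed across the 4 groups of a bead-array study of 16HBE, an immortalised human bronchial epithelial cell line. The set was a list of 52 genes drawn up by name. 50 of them had a probe named in the annotation, and 47 were measured, among 10532 genes measured in all. A gene was measured if 1 of its probes had a detection p under 0.01 on all 3 arrays of any group, and its brightest such probe stood for it. STAT2 and TDRD7 had no probe named in the annotation used here. CMPK2, TRIM22 and IFITM1 stayed below the filter, with detection on 1, 0 and 3 of the 12 arrays. Of the 47, 42 were detected on all 3 arrays of every group. DTX3L was kept through the dominant-negative Ras arrays alone and IFI44L through the control arrays alone, so the filter itself favours a call where that group is high, and their p-values are not read as results.

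Each group had 3 arrays, from 3 independent experiments per the design text. All cells were stably infected with the retroviral vector pQCXIP. MEK inhibitor cells carried the empty vector and received GSK1120212 at 500 nM for 4 days. ERK inhibitor cells carried the empty vector and received SCH772984 at 1 µM for 4 days. Dominant-negative Ras cells carried pQCXIP with DN Ras N17, a form of Ras that blocks activation of the cell's own Ras, and their labels give neither solvent nor time. Control cells also had the empty vector, with the solvent DMSO for 4 days. All results come from 1 cell line, and the labels do not say whether the infected cells were a pool or a clone.

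Cells that detect viral RNA or DNA secrete interferons, which bind receptors on the same and neighbouring cells. Receptor-bound JAK kinases then phosphorylate STAT proteins, which join IRF9 and switch on genes that carry an interferon-stimulated response element (ISRE) in their promoters. The products degrade viral RNA, block translation and entry, and include sensors and transcription factors that amplify the response. In the airway, epithelial cells are themselves a source of interferon and a first line of this defence.

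Values are log2 normalized intensities, and differences are log2 differences ± SE from limma, with p-values adjusted over all 10532 genes and a threshold of 0.05. Single probes other than a gene's brightest were read from a separate fit, with p-values adjusted over the 13885 kept probes with a symbol. Intensities of different probes cannot be compared with each other. Arrays had 16825 to 18295 detected probes and a median of 21 or 22 beads per probe. One library was unlike its group: in dominant-negative Ras replicate 3, 85 genes differed 2-fold or more from each of its fellow arrays, where no other array had over 22 such genes. Of 7 epithelial markers, 6 were detected with the MEK inhibitor, 7 with the ERK inhibitor, 7 in dominant-negative Ras cells and 6 in control cells, on all 3 arrays in each case. The exception was KRT14, detected on 0 control arrays. The 7 epithelial markers summed to 10230 to 11120 intensity units with the MEK inhibitor and 13550 to 14390 with the ERK inhibitor. They summed to 11370 to 13100 in dominant-negative Ras cells and 13040 to 14440 in control cells, and their part in the results was not tested. Leukocyte markers CD14, CD68 and HLA-DRA were detected in every group, with a summed level over 7 markers of 465 to 538 intensity units with the MEK inhibitor, 460 to 517 with the ERK inhibitor and 454 to 526 in dominant-negative Ras cells, against 434 to 505 in control cells. PTPRC, the common leukocyte antigen, and CD3D were detected on no array. Of 4 markers of plasmacytoid dendritic cells, a specialised interferon source, 0 were detected in any group on all 3 arrays, and of 3 endothelial markers 0 on any array. COL1A1 alone of 6 fibroblast markers was detected on all 3 arrays of the ERK inhibitor, dominant-negative Ras and control groups. With the MEK inhibitor COL1A1 and LUM were. Some of the others were detected on fewer arrays of a group. The 6 fibroblast markers summed to 200 to 234, 179 to 191, 156 to 209 and 138 to 154 units in the same order of groups, and their part in the results was not tested. In bulk RNA, more cells with a transcript and more transcript per cell cannot be told apart. As a check on the inhibitors, 10 of 10 MEK/ERK output genes fell with the MEK inhibitor, 8 with the ERK inhibitor and 10 with dominant-negative Ras. Of all genes, 8.86%, 5.48% and 6.45% fell. The falls were not equal, with medians of −2.09, −1.46 and −1.54. With the ERK inhibitor, 6 were higher and 0 lower than with the MEK inhibitor (6.69% and 3.52% of all genes). Against dominant-negative Ras, 4 were higher and 1 lower (6.09% and 4.79%). This list was chosen with earlier results of these data known.

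The ERK inhibitor raised most of the set. Of the 47 measured members, 28 rose and 0 fell against control, where 5.92% of all genes rose and 5.48% fell. At an unadjusted p under 0.05, limma had 32 higher and 2 lower, where 12.8% and 13.6% of all genes were. The median difference was 0.64, beside −0.01 over all genes, and the members ran between −0.35 and 2.07. For 34 members the 3 ERK inhibitor arrays all lay above the 3 control arrays, as they did for 16.3% of all genes, and for 2 they lay below (17.4%). With the MEK inhibitor, 2 members rose and 7 fell, where 7.11% and 8.86% of all genes did, and the median was −0.20. All 3 MEK inhibitor arrays lay above control for 3 members and below it for 13, as they did for 18.4% and 19.3% of all genes. With dominant-negative Ras, 6 rose (5 without DTX3L) and 1 fell, where 5.81% and 6.45% of all genes did, and the median was 0.11. Its arrays lay wholly above control for 9 members, as they did for 15.6% of all genes. These 3 comparisons share their control arrays.

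The set also differed between the inhibited groups when they were tested against each other. Against the MEK inhibitor, 31 of 47 members were higher with the ERK inhibitor and 0 lower, where 6.69% and 3.52% of all genes were, with a median difference of 0.76. Against dominant-negative Ras, 27 were higher with the ERK inhibitor and 0 lower, where 6.09% and 4.79% of all genes were, with a median of 0.55. At an unadjusted p under 0.05, limma had 32 members higher and 0 lower against the MEK inhibitor, where 12.67% and 10.99% of all genes were. Against dominant-negative Ras it had 30 higher and 0 lower, where 13.08% and 13.12% of all genes were. Dominant-negative Ras against the MEK inhibitor gave 8 higher and 0 lower, where 2.49% and 1.91% of all genes were, and 4.40% differed in either direction. The median was 0.27, and at an unadjusted p under 0.05 limma had 21 members higher and 2 lower, where 10.5% and 8.51% of all genes were. Its arrays lay wholly above those of the MEK inhibitor for 18 members and below them for 1 (11.6% and 9.71% of all genes). The count of 8 higher moved with single arrays: it was 2 without dominant-negative Ras replicate 2, 14 without dominant-negative Ras replicate 3, and 1 without MEK inhibitor replicate 2 or replicate 3. Group means were highest with the ERK inhibitor for 35 members, or 74.5%, while 23.3% of all genes had their highest mean there. They were lowest with the MEK inhibitor for 30 members, or 63.8%, and for 23.8% of all genes.

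**Figure D1:**
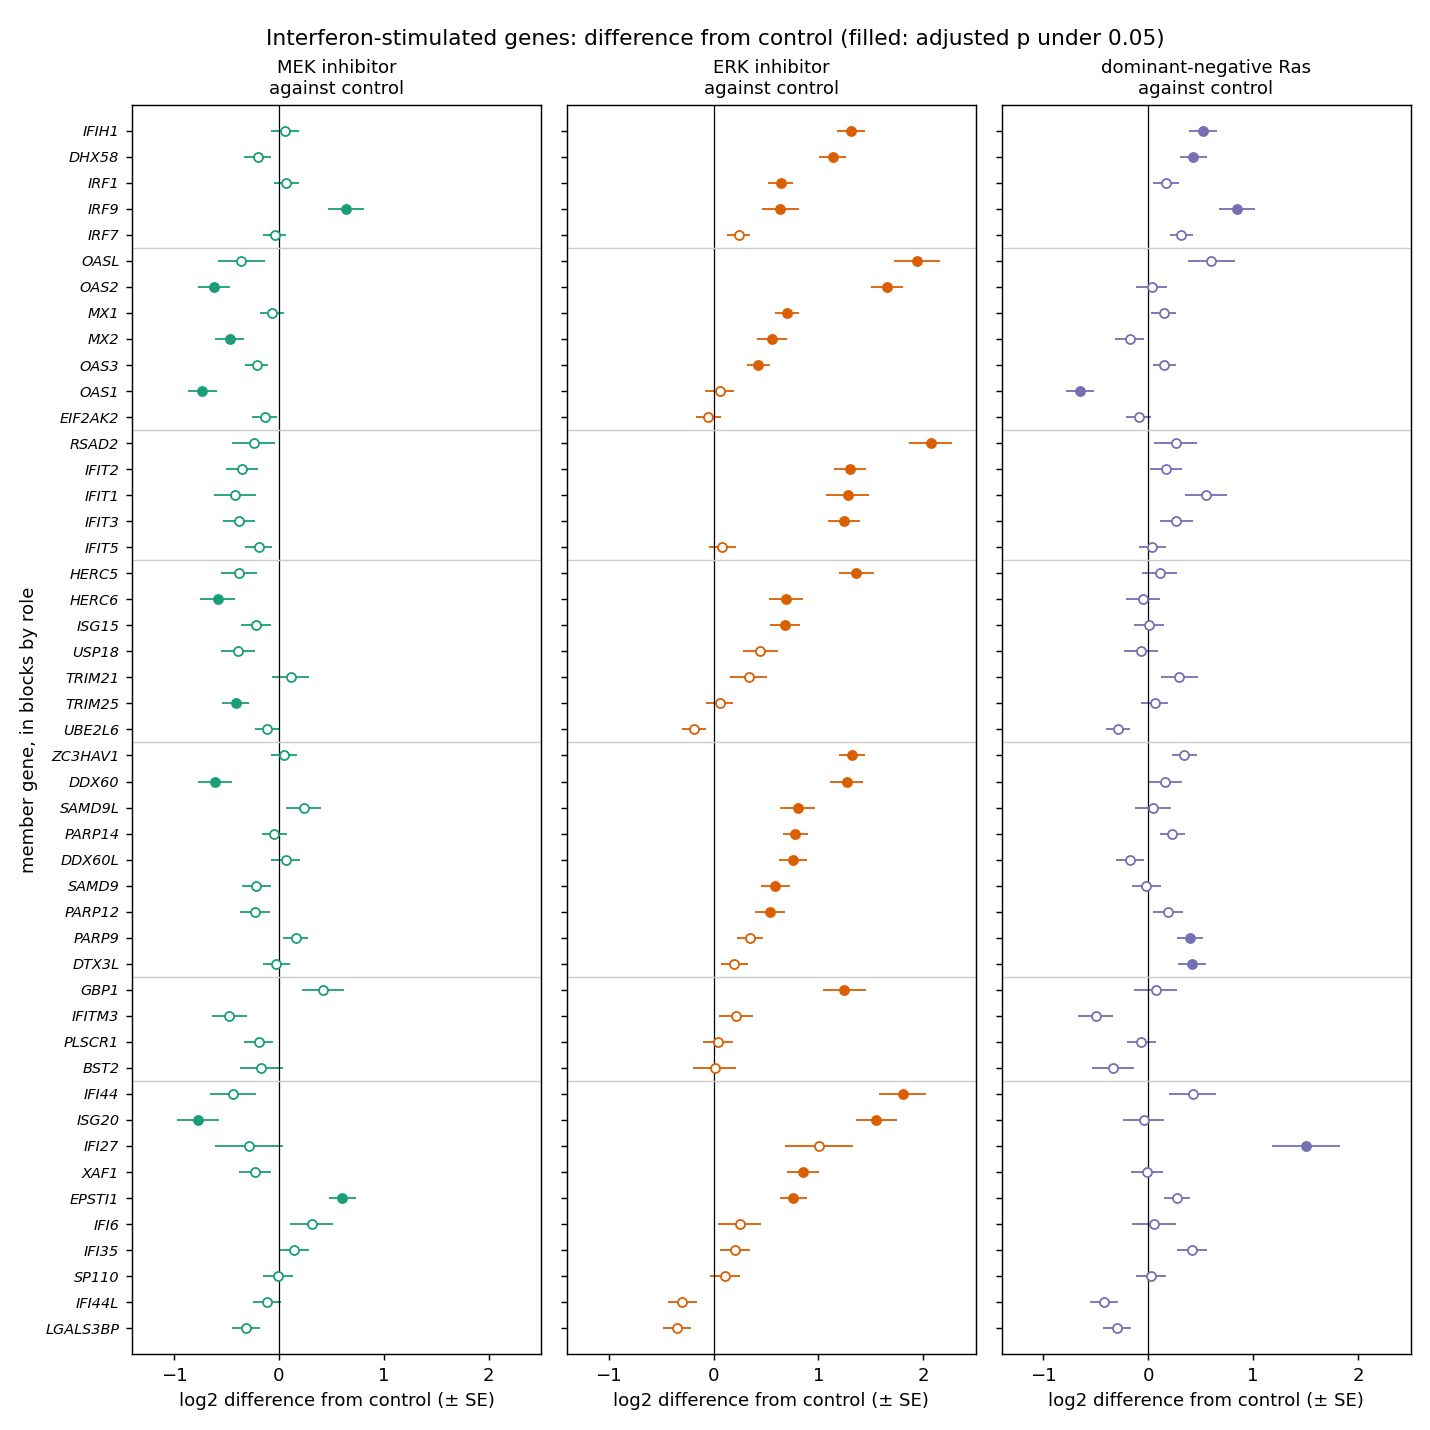
Log2 difference from control (± SE, limma, 3 arrays per group) of the 47 measured members in the 3 inhibited groups, in blocks by role; filled points have an adjusted p under 0.05. The ERK inhibitor panel holds 28 filled points, all to the right of 0, against 9 with the MEK inhibitor and 7 with dominant-negative Ras. The 7 include DTX3L, whose call the detection filter favours.

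The single arrays show how far this held from array to array. The median over members of the value minus the gene's control mean was 0.72, 0.61 and 0.59 on the 3 ERK inhibitor arrays. It was −0.05, −0.18 and −0.23 on the MEK inhibitor arrays and 0.16, 0.23 and 0.02 on the dominant-negative Ras arrays, against −0.02, 0.02 and 0.00 on the control arrays. The same median over all genes stayed between −0.02 and 0.02 on every array. The 3 ERK inhibitor medians thus lay above those of every other array, and medians differed somewhat within each inhibited group. Members differed widely on an ERK inhibitor array. Their quartiles were 0.35 and 1.255 on replicate 1 and 0.10 and 1.03 on replicate 3, against −0.13 and 0.05 on control replicate 1. On MEK inhibitor replicate 1, 7 of the 47 members lay at least 0.5 beyond both other arrays of the group, against 1 and 0 on MEK inhibitor replicates 2 and 3 and 3 to 5 on the dominant-negative Ras arrays. For all genes, on MEK inhibitor replicates 1 to 3, those numbers were 269, 111 and 55 of 10532. On dominant-negative Ras replicates 1 to 3 they were 320, 184 and 744 of all genes, beside 5, 3 and 4 members.

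**Figure D2:**
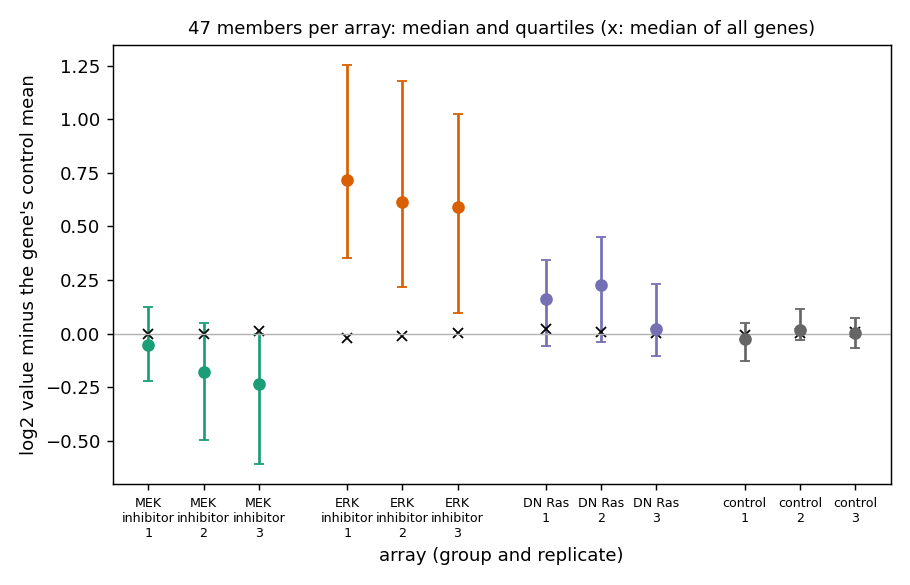
Median (points) and quartiles (bars) over the 47 members of the log2 value minus the gene's control mean, for each of the 12 arrays, with the median of all 10532 genes as crosses. The ERK inhibitor arrays sit at 0.72, 0.61 and 0.59, above all other arrays.

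The promoters of the set show a letter pattern that much of it shares. RefSeq promoter windows (GRCh38.p14, 250 bases before to 50 after a gene's start) matched 40 of the 47 measured members by symbol, 10 of them with several windows. The ISRE core, searched on both strands as GAAA, any 2 bases and GAAA again, stood in a window of 29 of the 40, or 72.5%, and in 4.38% of all 27305 genes with a window. It was present in 17 of 23 members that rose with the ERK inhibitor (73.9%) and in 12 of 17 that did not pass (70.6%). The element bound by STAT dimers (GAS), searched on both strands as TTC, any 3 bases and GAA, stood in 13 of 40 members (32.5%) and in 9.38% of all genes. A GAS match can overlap an ISRE match. A match is a description of these letters and not of binding.

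The stretches below are the 150 bases before the start, read 5′ to 3′ on the gene's own strand, with each complete ISRE core in capitals (GAS in capitals for IRF9). The first 4 belong to members that rose with the ERK inhibitor: DDX60 (chr4:168318753-168318902, minus strand), IFIH1 (chr2:162318685-162318834, minus strand), ISG20 (chr15:88638866-88639015, plus strand) and RSAD2 (chr2:6877627-6877776, plus strand). BST2 (chr19:17405631-17405780, minus strand), IFITM3 (chr11:320861-321010, minus strand) and LGALS3BP (chr17:78979924-78980073, minus strand) carry the same kind of letters and did not pass. PARP9 (chr3:122564301-122564450, minus strand) shares its match with its neighbour DTX3L, and IRF9 (chr14:24161115-24161264, plus strand) has no ISRE core in its window.
DDX60: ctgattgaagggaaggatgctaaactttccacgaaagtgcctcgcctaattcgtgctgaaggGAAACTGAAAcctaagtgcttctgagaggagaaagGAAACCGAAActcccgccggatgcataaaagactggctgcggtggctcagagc
IFIH1: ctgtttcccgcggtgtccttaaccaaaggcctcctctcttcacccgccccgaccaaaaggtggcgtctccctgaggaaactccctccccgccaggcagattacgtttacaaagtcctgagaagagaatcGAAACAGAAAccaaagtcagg
ISG20: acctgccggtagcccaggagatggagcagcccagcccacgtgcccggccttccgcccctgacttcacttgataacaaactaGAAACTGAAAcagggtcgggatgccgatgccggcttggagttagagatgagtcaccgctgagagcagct
RSAD2: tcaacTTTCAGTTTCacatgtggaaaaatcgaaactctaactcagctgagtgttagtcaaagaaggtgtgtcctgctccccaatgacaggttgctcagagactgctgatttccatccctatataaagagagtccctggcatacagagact
BST2: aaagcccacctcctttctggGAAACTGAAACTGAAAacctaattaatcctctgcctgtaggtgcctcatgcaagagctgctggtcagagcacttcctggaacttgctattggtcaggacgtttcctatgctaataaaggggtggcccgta
IFITM3: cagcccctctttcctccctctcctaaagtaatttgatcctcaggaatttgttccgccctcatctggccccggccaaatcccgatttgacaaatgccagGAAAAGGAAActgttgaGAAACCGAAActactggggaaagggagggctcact
LGALS3BP: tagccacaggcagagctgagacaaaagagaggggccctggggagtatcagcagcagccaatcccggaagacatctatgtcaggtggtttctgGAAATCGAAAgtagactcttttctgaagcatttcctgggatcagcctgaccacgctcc
PARP9: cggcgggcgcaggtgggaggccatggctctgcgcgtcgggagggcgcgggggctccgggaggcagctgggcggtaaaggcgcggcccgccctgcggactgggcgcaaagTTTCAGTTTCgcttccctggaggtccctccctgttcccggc
IRF9: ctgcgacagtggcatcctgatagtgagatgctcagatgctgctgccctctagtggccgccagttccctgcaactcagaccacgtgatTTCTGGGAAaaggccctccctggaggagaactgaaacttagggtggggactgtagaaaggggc

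**Figure D3:**
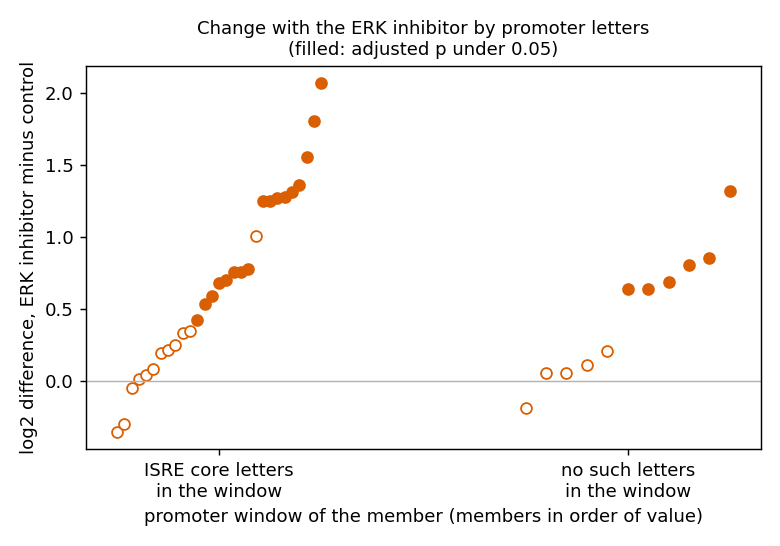
Log2 difference between ERK inhibitor and control for the 40 members with a promoter window, split by whether the ISRE core letters stand in it (29) or not (11); filled points have an adjusted p under 0.05. Both columns hold risen members, 17 of 29 with the letters and 6 of 11 without.

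The sensors of viral RNA rose with the ERK inhibitor. IFIH1 encodes MDA5, which recognises long double-stranded RNA, and read 8.85, 8.75 and 8.62 with the MEK inhibitor, 10.06, 9.78 and 10.13 with the ERK inhibitor and 9.21, 9.42 and 8.97 in dominant-negative Ras cells, against 8.67, 8.66 and 8.70 in control cells. The ERK inhibitor arrays lay above all others, and the dominant-negative Ras arrays lay between them and control. The differences were 1.31 ± 0.13 with the ERK inhibitor (limma adjusted p = 1.02e-05), 0.06 ± 0.13 with the MEK inhibitor (0.804) and 0.52 ± 0.13 with dominant-negative Ras (0.0179). DHX58 encodes LGP2, which modulates MDA5, and read 6.19, 5.99 and 5.79 with the MEK inhibitor, 7.36, 7.31 and 7.30 with the ERK inhibitor and 6.54, 6.61 and 6.70 in dominant-negative Ras cells, against 6.06, 6.40 and 6.11 in control cells. It too was highest with the ERK inhibitor and higher in dominant-negative Ras cells than in control, without overlap. Its differences were 1.14 ± 0.13 with the ERK inhibitor (limma adjusted p = 2.78e-05), −0.20 ± 0.13 with the MEK inhibitor (0.326) and 0.43 ± 0.13 with dominant-negative Ras (0.0409).

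Of the transcription factors, IRF1 rose with the ERK inhibitor, and IRF9 rose in all 3 inhibited groups. IRF1, which binds ISRE-like sites without STAT proteins, changed by 0.64 ± 0.12 with the ERK inhibitor (limma adjusted p = 0.00337), 0.07 with the MEK inhibitor and 0.17 with dominant-negative Ras. IRF9 is the DNA-binding partner of the STAT proteins in the ISRE complex. It read 8.15, 8.17 and 8.24 with the MEK inhibitor, 8.48, 8.02 and 8.05 with the ERK inhibitor and 8.65, 8.13 and 8.40 in dominant-negative Ras cells, against 7.19, 7.82 and 7.63 in control cells, and all arrays of the 3 inhibited groups lay above the control arrays. Its rises were 0.64 ± 0.17 with the MEK inhibitor (limma adjusted p = 0.019), 0.64 ± 0.17 with the ERK inhibitor (0.0269) and 0.85 ± 0.17 with dominant-negative Ras (0.00486), and the 95% interval of ERK minus MEK inhibitor was −0.37 to 0.36 (adjusted p = 0.994). Control replicate 1 read lowest, and without it the rise was 0.46 with the MEK inhibitor (adjusted p = 0.11) and 0.46 with the ERK inhibitor (0.134). The MEK inhibitor call was also lost without MEK inhibitor replicate 2 (0.0552) or 3 (0.0674), and the ERK inhibitor call without ERK inhibitor replicate 1 (0.102) or control replicate 3 (0.0583), or without a detection filter (0.0636). IRF7, the factor that amplifies interferon gene expression, read 7.87, 7.76 and 7.82 with the MEK inhibitor, 8.23, 7.98 and 8.08 with the ERK inhibitor and 8.24, 8.04 and 8.22 in dominant-negative Ras cells, against 7.83, 7.84 and 7.90 in control cells. It passed in no comparison with control, with differences of 0.24 ± 0.11 (ERK inhibitor), −0.04 ± 0.11 (MEK inhibitor) and 0.32 ± 0.11 (dominant-negative Ras). The last passed without background correction (limma adjusted p = 0.0374) or without a detection filter (0.0491).

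The OAS enzymes make a second messenger that activates RNase L, which cuts RNA, and they parted ways. OAS2 read 5.70, 5.23 and 5.28 with the MEK inhibitor, 7.40, 7.81 and 7.81 with the ERK inhibitor and 5.90, 6.13 and 6.12 in dominant-negative Ras cells, against 5.87, 6.16 and 6.02 in control cells. It rose by 1.65 ± 0.15 with the ERK inhibitor (limma adjusted p = 5.09e-06) and fell by 0.62 on the log2 scale with the MEK inhibitor (SE 0.15, 0.0112), so the 2 drugs moved it in opposite directions, and with dominant-negative Ras it differed by 0.03 ± 0.15. OASL, an OAS relative without enzyme activity, read 8.07, 7.18 and 7.45 with the MEK inhibitor, 9.98, 9.76 and 9.86 with the ERK inhibitor and 8.01, 8.93 and 8.62 in dominant-negative Ras cells, against 8.11, 7.81 and 7.85 in control cells. It rose by 1.94 ± 0.22 with the ERK inhibitor (limma adjusted p = 3.19e-05) and differed by 0.60 ± 0.22 with dominant-negative Ras (0.0901), where replicate 1 lay at the control level and the other two above it. Without that replicate OASL passed there, at 0.85 (0.0128), as did its other probe (0.69, 0.0339) and the mean of both probes (0.65, 0.0428). OAS3 rose less, by 0.43 ± 0.11 with the ERK inhibitor (limma adjusted p = 0.0235), and lost that call without ERK inhibitor replicate 1 (0.0654) or 3 (0.0739) or control replicate 1 (0.0667) or 3 (0.0926), and with arrays scaled to 1 median (0.0683).

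OAS1 departed from OAS2 and OASL. It read 5.52, 5.46 and 5.14 with the MEK inhibitor, 5.91, 6.31 and 6.26 with the ERK inhibitor and 5.40, 5.49 and 5.46 in dominant-negative Ras cells, against 5.95, 6.10 and 6.26 in control cells, so ERK inhibitor and control arrays overlapped while MEK inhibitor and dominant-negative Ras arrays lay below both. The differences were 0.06 ± 0.14 with the ERK inhibitor (limma adjusted p = 0.835), −0.73 ± 0.14 with the MEK inhibitor (0.00176) and −0.65 ± 0.14 with dominant-negative Ras (0.00602). The brightest of its 3 measured probes gave these calls. The other two had −0.10 and −0.39 with the MEK inhibitor and −0.13 and −0.12 with dominant-negative Ras and passed in neither, and their ERK inhibitor differences were 0.07 and 0.17. The mean of all 3 probes lost the dominant-negative Ras call (adjusted p = 0.104).

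The MX genes encode dynamin-like GTPases that trap viral components. MX1 rose with the ERK inhibitor by 0.70 ± 0.12 (limma adjusted p = 0.00121), and it differed by −0.06 with the MEK inhibitor and 0.15 with dominant-negative Ras. MX2 read 4.71, 4.38 and 4.24 with the MEK inhibitor, 5.52, 5.26 and 5.62 with the ERK inhibitor and 4.65, 4.65 and 4.89 in dominant-negative Ras cells, against 4.83, 4.91 and 4.99 in control cells, and it was detected on no MEK inhibitor array. It rose by 0.56 ± 0.14 with the ERK inhibitor (limma adjusted p = 0.017) and was at least 1.04-fold lower with the MEK inhibitor (0.0305), where a bound stands for the fold because the lower level is not measured. These calls were lost without ERK inhibitor replicate 3 (0.0771) or control replicate 1 (0.0698) or 2 (0.0513) for the ERK inhibitor and without MEK inhibitor replicate 2 (0.107) or 3 (0.143) or control replicate 1 (0.0588) or 2 (0.0721) or 3 (0.105) for the MEK inhibitor. Leaving out the background correction also ended both (0.0842 with the ERK inhibitor, 0.141 with the MEK inhibitor). The MEK inhibitor call was lost with arrays scaled to 1 median (0.0931) and in the authors' processed values, where the difference was 0 (adjusted p = 1). EIF2AK2 encodes PKR, a kinase that stops translation when it binds double-stranded RNA. It read 9.66, 9.59 and 9.55 with the MEK inhibitor, 9.73, 9.76 and 9.56 with the ERK inhibitor and 9.81, 9.66 and 9.46 in dominant-negative Ras cells, against 9.61, 9.78 and 9.81 in control cells, all groups overlapped, and its ERK inhibitor difference was −0.05 ± 0.12 (95% interval −0.30 to 0.20).

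The IFIT proteins bind foreign RNA ends and block their translation, and viperin, the product of RSAD2, makes a chain-terminating nucleotide. RSAD2 read 5.18, 4.69 and 4.24 with the MEK inhibitor, 7.03, 6.94 and 7.07 with the ERK inhibitor and 5.07, 5.63 and 4.93 in dominant-negative Ras cells, against 4.88, 5.10 and 4.86 in control cells. It had the largest rise of the set with the ERK inhibitor, 2.07 ± 0.21 (limma adjusted p = 8.81e-06), with ERK inhibitor arrays far above all others and detection on 1 of 3 MEK inhibitor arrays. IFIT2 read 9.51, 9.38 and 9.31 with the MEK inhibitor, 11.25, 11.16 and 10.73 with the ERK inhibitor and 9.83, 10.15 and 9.77 in dominant-negative Ras cells, against 9.92, 9.56 and 9.76 in control cells. IFIT3 read 7.65, 7.50 and 7.23 with the MEK inhibitor, 9.32, 9.14 and 8.81 with the ERK inhibitor and 7.90, 8.35 and 8.09 in dominant-negative Ras cells, against 7.90, 7.81 and 7.82 in control cells. In both genes the ERK inhibitor arrays lay above all others and the MEK inhibitor arrays below all control arrays. The other two probes of IFIT3 had differences of 0.06 and 0.12 with the MEK inhibitor and of 1.40 and 1.78 with the ERK inhibitor. IFIT2 rose by 1.30 ± 0.15 (4.01e-05) and IFIT3 by 1.25 ± 0.15 (6.52e-05) with the ERK inhibitor, while the MEK inhibitor differences of −0.35 ± 0.15 and −0.38 ± 0.15 did not pass (limma adjusted p = 0.14 and 0.105), save that of IFIT3 in a fit on the 2 groups alone (0.0462). IFIT1 rose by 1.28 ± 0.20 (limma adjusted p = 0.000755) with the ERK inhibitor, and with dominant-negative Ras it differed by 0.55 ± 0.20 (0.0856), a difference that passed without dominant-negative Ras replicate 1 (0.82, adjusted p = 0.00546). IFIT5 lay apart from its relatives, with a difference of 0.08 ± 0.13 (95% interval −0.19 to 0.36) with the ERK inhibitor. Its window holds 3 ISRE cores.

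**Figure D4:**
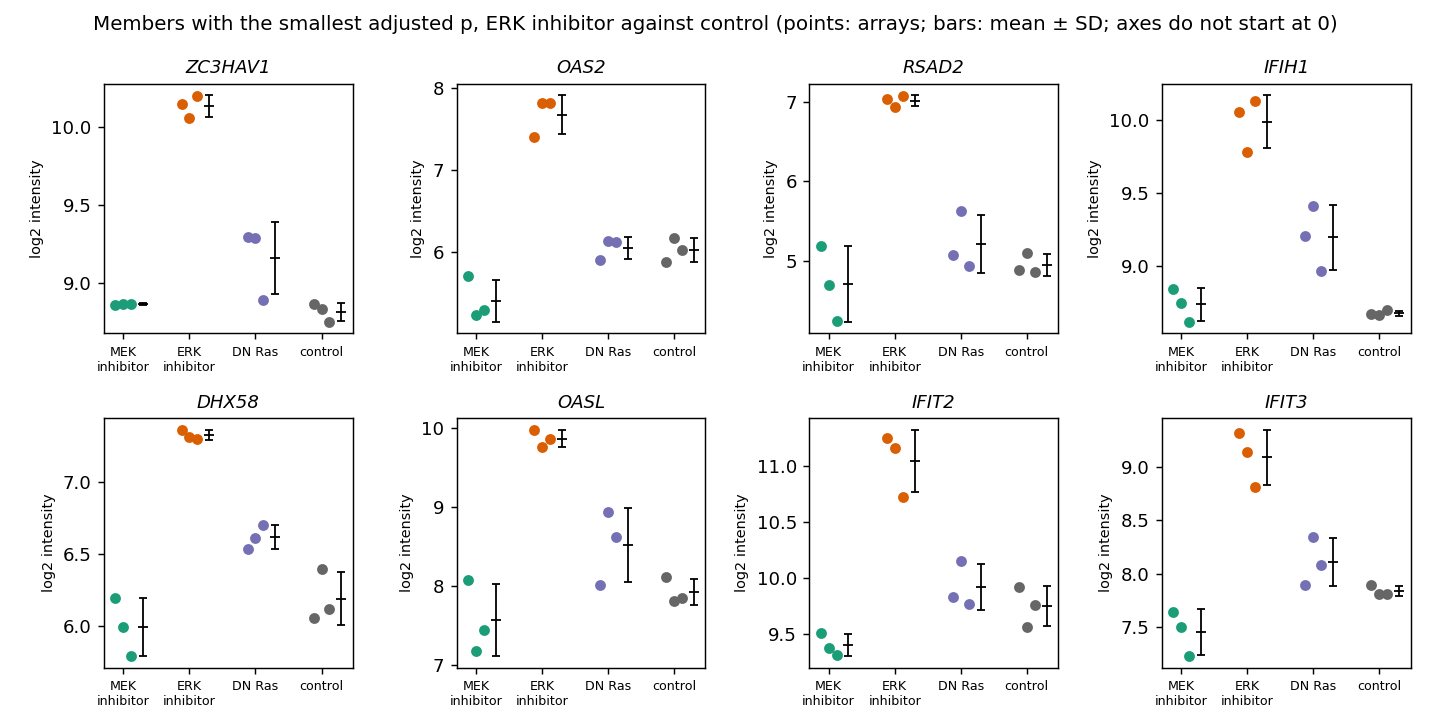
Log2 intensity on each of the 3 arrays per group (points) with mean ± SD (bars) for the 8 members with the smallest adjusted p in ERK inhibitor against control. In each panel the 3 ERK inhibitor arrays lie above all 9 other arrays.

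ISG15 is a ubiquitin-like modifier that is joined to proteins by UBE2L6 and HERC5 and removed by USP18. The modifier and its ligase rose with the ERK inhibitor: ISG15 by 0.68 ± 0.14 (limma adjusted p = 0.00596) and HERC5 by 1.36 ± 0.17 (6.74e-05). HERC5 read 9.94, 9.43 and 9.22 with the MEK inhibitor, 11.19, 11.14 and 11.47 with the ERK inhibitor and 10.05, 10.13 and 9.87 in dominant-negative Ras cells, against 10.10, 9.81 and 9.81 in control cells, with MEK inhibitor replicate 1 level with the control arrays and the other two below them. Without that replicate HERC5 was lower with the MEK inhibitor (−0.59, adjusted p = 0.0175), and with all 3 arrays its difference of −0.38 ± 0.17 did not pass (0.142). The related HERC6 read 8.18, 7.56 and 8.06 with the MEK inhibitor, 9.46, 9.24 and 8.94 with the ERK inhibitor and 8.26, 8.62 and 8.53 in dominant-negative Ras cells, against 8.54, 8.52 and 8.50 in control cells. It rose by 0.69 ± 0.17 with the ERK inhibitor (limma adjusted p = 0.0144) and changed by −0.58 ± 0.17 with the MEK inhibitor (0.0247), without overlap in either comparison. The first call was lost without ERK inhibitor replicate 1 (0.0571) or control replicate 3 (0.0502), the second without MEK inhibitor replicate 2 (0.139) or control replicate 1 (0.0757) or 2 (0.0624) or 3 (0.0617), or without a detection filter (0.0569).

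The other parts of the ISG15 system did not rise in the test. UBE2L6, the conjugating enzyme, read 10.62, 10.62 and 10.52 with the MEK inhibitor, 10.44, 10.55 and 10.53 with the ERK inhibitor and 10.60, 10.27 and 10.36 in dominant-negative Ras cells, against 10.60, 10.83 and 10.65 in control cells. Its ERK inhibitor arrays lay below its control arrays, with a difference of −0.19 ± 0.12 (limma adjusted p = 0.321). Without dominant-negative Ras replicate 1 it was lower in dominant-negative Ras cells (−0.38, adjusted p = 0.0461), against −0.29 ± 0.12 (0.121) with all arrays. USP18, the protease, read 6.10, 6.12 and 5.78 with the MEK inhibitor, 7.11, 6.72 and 6.67 with the ERK inhibitor and 6.01, 6.48 and 6.46 in dominant-negative Ras cells, against 6.59, 6.39 and 6.18 in control cells. All its ERK inhibitor arrays lay above the control arrays, at a difference of 0.45 ± 0.16 that missed the threshold (0.0909) and passed when arrays were scaled to 1 median (0.0325).

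Among the ubiquitin ligases of the TRIM family, TRIM25, which activates the sensor RIG-I, read 7.15, 6.95 and 7.34 with the MEK inhibitor, 7.77, 7.59 and 7.49 with the ERK inhibitor and 7.82, 7.56 and 7.48 in dominant-negative Ras cells, against 7.58, 7.54 and 7.55 in control cells. It changed by −0.41 ± 0.13 with the MEK inhibitor (limma adjusted p = 0.0424) and by 0.06 ± 0.13 with the ERK inhibitor (0.817). The MEK inhibitor call was lost without MEK inhibitor replicate 1 (0.0834) or 2 (0.19), ERK inhibitor replicate 2 (0.0566) or control replicate 1 (0.118) or 2 (0.0846) or 3 (0.0973), with arrays scaled to 1 median (0.0687) and without a detection filter (0.0539). TRIM21, a receptor for antibody-coated virus, read 5.95, 6.11 and 5.82 with the MEK inhibitor, 6.49, 6.14 and 5.91 with the ERK inhibitor and 6.16, 6.13 and 6.14 in dominant-negative Ras cells, against 5.56, 6.28 and 5.69 in control cells. All groups overlapped except dominant-negative Ras and MEK inhibitor, the ERK inhibitor difference was 0.34 ± 0.18 (0.238), and without control replicate 2, the highest of its group, it was 0.56 (adjusted p = 0.0488).

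DDX60 and ZC3HAV1 rose with the ERK inhibitor. ZC3HAV1, the zinc-finger antiviral protein that binds CG-rich viral RNA, read 8.86, 8.87 and 8.86 with the MEK inhibitor, 10.15, 10.06 and 10.19 with the ERK inhibitor and 9.29, 9.29 and 8.89 in dominant-negative Ras cells, against 8.86, 8.83 and 8.75 in control cells. It had the smallest adjusted p of the set with the ERK inhibitor, a rise of 1.32 ± 0.12 (limma adjusted p = 4.79e-06), and its MEK inhibitor arrays were level with control, at 0.05 ± 0.12. With dominant-negative Ras the difference was 0.34 ± 0.12 (0.0732), and without replicate 3 of that group it passed (0.48, adjusted p = 0.0136). DDX60, a helicase-like antiviral factor, read 7.07, 6.53 and 6.55 with the MEK inhibitor, 8.54, 8.64 and 8.60 with the ERK inhibitor and 7.38, 7.82 and 7.25 in dominant-negative Ras cells, against 7.24, 7.34 and 7.39 in control cells. It rose by 1.27 ± 0.16 with the ERK inhibitor (limma adjusted p = 8.76e-05) and changed by −0.61 ± 0.16 with the MEK inhibitor (0.016), and the MEK inhibitor call was lost without MEK inhibitor replicate 2 (0.0845) or 3 (0.0784) or control replicate 3 (0.0599). Its near relative DDX60L, with which a probe could share transcripts, rose by 0.76 ± 0.14 with the ERK inhibitor (0.00202) and differed by 0.07 with the MEK inhibitor.

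SAMD9 and SAMD9L, which restrict poxviruses, rose with the ERK inhibitor by 0.59 ± 0.14 and 0.80 ± 0.17 (limma adjusted p = 0.0139 and 0.00607), as did the ADP-ribosyltransferase genes PARP12 and PARP14 by 0.54 ± 0.14 and 0.78 ± 0.12 (0.024 and 0.000469). The call of SAMD9 was lost without control replicate 2 (0.0612), and that of PARP12 without ERK inhibitor replicate 1 (0.0666) or 2 (0.0532) or 3 (0.0629) or control replicate 2 (0.103) or 3 (0.08). PARP9 and DTX3L encode partner proteins and lie head to head on chromosome 3, where 1 ISRE core at chr3:122564332-122564341 stands in the windows of both. PARP9 read 7.44, 7.19 and 7.32 with the MEK inhibitor, 7.32, 7.62 and 7.58 with the ERK inhibitor and 7.67, 7.47 and 7.52 in dominant-negative Ras cells, against 7.04, 7.22 and 7.21 in control cells. DTX3L read 4.48, 4.91 and 4.75 with the MEK inhibitor, 5.14, 4.86 and 4.81 with the ERK inhibitor and 5.09, 5.21 and 5.15 in dominant-negative Ras cells, against 4.80, 4.67 and 4.74 in control cells. In these genes dominant-negative Ras cells had the highest mean, and their arrays lay above the control arrays. For PARP9 they overlapped the ERK inhibitor arrays, with a difference of −0.047 (ERK inhibitor minus dominant-negative Ras). The other PARP9 probe gave 0.42 with the ERK inhibitor and 0.40 with dominant-negative Ras against control, and passed in neither. In that fit over probes the brightest PARP9 probe also passed in neither (limma adjusted p = 0.0842 and 0.0505). In the fit over genes PARP9 rose by 0.40 ± 0.12 with dominant-negative Ras (limma adjusted p = 0.0451), while its ERK inhibitor difference was 0.35 ± 0.12 (0.0757). DTX3L was detected on 2 of 3 ERK inhibitor arrays and all 3 dominant-negative Ras arrays, against no control array. It was at least 1.24-fold higher with dominant-negative Ras than in control and entered the fit through the dominant-negative Ras arrays alone. The rise of PARP9 lay at the threshold and was lost without MEK inhibitor replicate 2 (0.0503) or 3 (0.0607), ERK inhibitor replicate 2 (0.0541) or 3 (0.0505), dominant-negative Ras replicate 1 (0.109) or 2 (0.0625) or 3 (0.0686) or control replicate 1 (0.163) or 2 (0.0737) or 3 (0.0875), with arrays scaled to 1 median (0.482) and in a fit on the 2 groups alone (0.0786). The PARP9 difference with the ERK inhibitor passed without ERK inhibitor replicate 1 (0.44, adjusted p = 0.0434) and with the mean of its 2 probes (0.39, 0.0204).

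Of the membrane and vesicle proteins, GBP1 alone among 4 measured rose with the ERK inhibitor. This interferon-induced GTPase, which attacks vacuoles of intracellular pathogens, rose by 1.25 ± 0.20 (limma adjusted p = 0.00091) and differed by 0.42 ± 0.20 with the MEK inhibitor (0.178), which passed without dominant-negative Ras replicate 3, an array outside that comparison (0.0454). IFITM3, which blocks virus fusion in endosomes and whose probe may read related IFITM transcripts, read 11.30, 10.72 and 10.68 with the MEK inhibitor, 11.84, 11.61 and 11.31 with the ERK inhibitor and 10.97, 10.88 and 10.75 in dominant-negative Ras cells, against 11.38, 11.28 and 11.46 in control cells. Its ERK inhibitor difference was 0.21 ± 0.17 (0.443), and those with the MEK inhibitor and dominant-negative Ras were −0.47 ± 0.17 (0.0659) and −0.50 ± 0.17 (0.0596). MEK inhibitor replicate 1 lay at the control level, and without it IFITM3 was lower with the MEK inhibitor (−0.67, 0.00794). With dominant-negative Ras it passed without MEK inhibitor replicate 1 (0.0263) or ERK inhibitor replicate 3 (0.0497). Scaling arrays to 1 median, leaving out the background correction and fitting the 2 groups alone each brought both IFITM3 differences past the threshold (0.0325, 0.0491 and 0.0497 with the MEK inhibitor; 0.0181, 0.0424 and 0.0331 with dominant-negative Ras).

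BST2, the tetherin that holds virus particles at the cell surface, read 9.53, 9.46 and 9.26 with the MEK inhibitor, 9.85, 9.49 and 9.45 with the ERK inhibitor and 9.81, 8.71 and 9.22 in dominant-negative Ras cells, against 9.49, 9.64 and 9.62 in control cells. ERK inhibitor and control arrays overlapped, at a difference of 0.01 ± 0.20 (95% interval −0.42 to 0.45). Dominant-negative Ras arrays spread from 8.71 to 9.81, and without replicate 1 of that group BST2 was lower there (−0.62, adjusted p = 0.0223). PLSCR1, a scramblase that limits virus entry, read 5.90, 6.01 and 5.79 with the MEK inhibitor, 6.28, 6.06 and 6.05 with the ERK inhibitor and 6.34, 5.87 and 5.84 in dominant-negative Ras cells, against 6.03, 6.20 and 6.03 in control cells, and its ERK inhibitor difference was 0.04 ± 0.14 (95% interval −0.25 to 0.34). BST2, IFITM3 and PLSCR1 each carry an ISRE core in the window.

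Among the remaining members, ISG20, IFI44, XAF1 and EPSTI1 rose with the ERK inhibitor. ISG20, an RNA exonuclease, read 8.62, 7.86 and 7.80 with the MEK inhibitor, 10.59, 10.41 and 10.26 with the ERK inhibitor and 8.96, 9.07 and 8.43 in dominant-negative Ras cells, against 8.90, 8.87 and 8.82 in control cells. It rose by 1.55 ± 0.20 with the ERK inhibitor (limma adjusted p = 9.91e-05) and had the largest fall of the set with the MEK inhibitor, −0.77 ± 0.20 (0.0145), and ERK and MEK inhibitor differed by 2.32 ± 0.20 (2.13e-06). The MEK inhibitor call was lost without MEK inhibitor replicate 2 (0.0787) or 3 (0.0806) or control replicate 1 (0.0531). IFI44 rose by 1.80 ± 0.22 (6.96e-05) and the apoptosis factor gene XAF1 by 0.85 ± 0.15 (0.0017) with the ERK inhibitor. With dominant-negative Ras, IFI44 differed by 0.42 ± 0.22 (0.237) and passed without replicate 3 of that group (0.70, 0.0318).

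EPSTI1, first described as a gene induced in epithelium by stroma, moved with both drugs. It read 10.59, 10.65 and 10.69 with the MEK inhibitor, 10.76, 10.81 and 10.83 with the ERK inhibitor and 10.40, 10.39 and 10.14 in dominant-negative Ras cells, against 9.86, 9.95 and 10.31 in control cells, with all MEK and ERK inhibitor arrays above all control arrays. It rose by 0.60 ± 0.13 with the MEK inhibitor (limma adjusted p = 0.00415), against the direction of the set's median there, and by 0.76 ± 0.13 with the ERK inhibitor (0.00125). The MEK inhibitor rise was 0.47 and lost its call with arrays scaled to 1 median (0.143), as did that of IRF9 (0.50, 0.141), which left 0 members higher with the MEK inhibitor under that scaling. IRF9 and EPSTI1 were the 2 members that rose with the MEK inhibitor.

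IFI27, a mitochondrial membrane protein gene often used as an interferon marker, was highest in dominant-negative Ras cells. It read 8.22, 7.05 and 7.03 with the MEK inhibitor, 9.31, 8.40 and 8.46 with the ERK inhibitor and 9.72, 9.34 and 8.59 in dominant-negative Ras cells, against 7.96, 7.69 and 7.50 in control cells, the widest spread within groups of the members described here by array. It rose by 1.502 ± 0.32 with dominant-negative Ras (limma adjusted p = 0.00679), while the ERK inhibitor difference of 1.01 ± 0.32 missed the threshold (0.0564) although its arrays all lay above control. The 2 inhibited groups differed by −0.50 ± 0.32 (ERK inhibitor minus dominant-negative Ras, 0.362; 95% interval −1.19 to 0.19). The ERK inhibitor difference passed without MEK inhibitor replicate 1 (0.0244), dominant-negative Ras replicate 1 (0.0438) or dominant-negative Ras replicate 3 (0.0252), which lie outside that comparison and enter the shared spread. It also passed with arrays scaled to 1 median (0.000561) and in a fit on the 2 groups alone (0.00676).

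A last group did not rise in the test with the ERK inhibitor. LGALS3BP, a secreted galectin-binding glycoprotein, read 8.98, 8.96 and 8.96 with the MEK inhibitor, 9.10, 8.70 and 8.98 with the ERK inhibitor and 8.90, 8.81 and 9.24 in dominant-negative Ras cells, against 9.33, 9.19 and 9.32 in control cells. MEK and ERK inhibitor arrays lay below all control arrays, yet no difference passed: −0.31 ± 0.13 with the MEK inhibitor (limma adjusted p = 0.127), −0.35 ± 0.13 with the ERK inhibitor (0.1) and −0.30 ± 0.13 with dominant-negative Ras (0.161). IFI6, which protects the endoplasmic reticulum from flavivirus replication, read 10.22, 10.28 and 9.85 with the MEK inhibitor, 10.18, 10.20 and 9.78 with the ERK inhibitor and 9.41, 10.07 and 10.10 in dominant-negative Ras cells, against 9.38, 10.04 and 9.995 in control cells, and its highest mean was with the MEK inhibitor. IFI35, a scaffold of innate signalling, read 9.43, 9.20 and 9.26 with the MEK inhibitor, 9.49, 9.31 and 9.28 with the ERK inhibitor and 9.78, 9.64 and 9.28 in dominant-negative Ras cells, against 8.93, 9.25 and 9.27 in control cells, with all dominant-negative Ras arrays above control at 0.41 ± 0.14 (0.0699), and 0.56 (0.0178) without replicate 3 of that group. SP110, a nuclear body protein, read 8.40, 8.10 and 8.31 with the MEK inhibitor, 8.32, 8.30 and 8.53 with the ERK inhibitor and 8.47, 8.14 and 8.29 in dominant-negative Ras cells, against 7.99, 8.44 and 8.39 in control cells, with all groups overlapping. The ERK inhibitor differences of IFI6, IFI35 and SP110 were 0.25, 0.21 and 0.11, and none passed. The other IFI6 probe had larger differences, 0.59 with the ERK inhibitor and 0.69 with the MEK inhibitor, and passed in neither. IFI44L, the relative of IFI44, was detected on 1 of 3 ERK inhibitor arrays and on no dominant-negative Ras array, against 3 of 3 control arrays. It entered the fit through the control arrays alone.

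**Figure D5:**
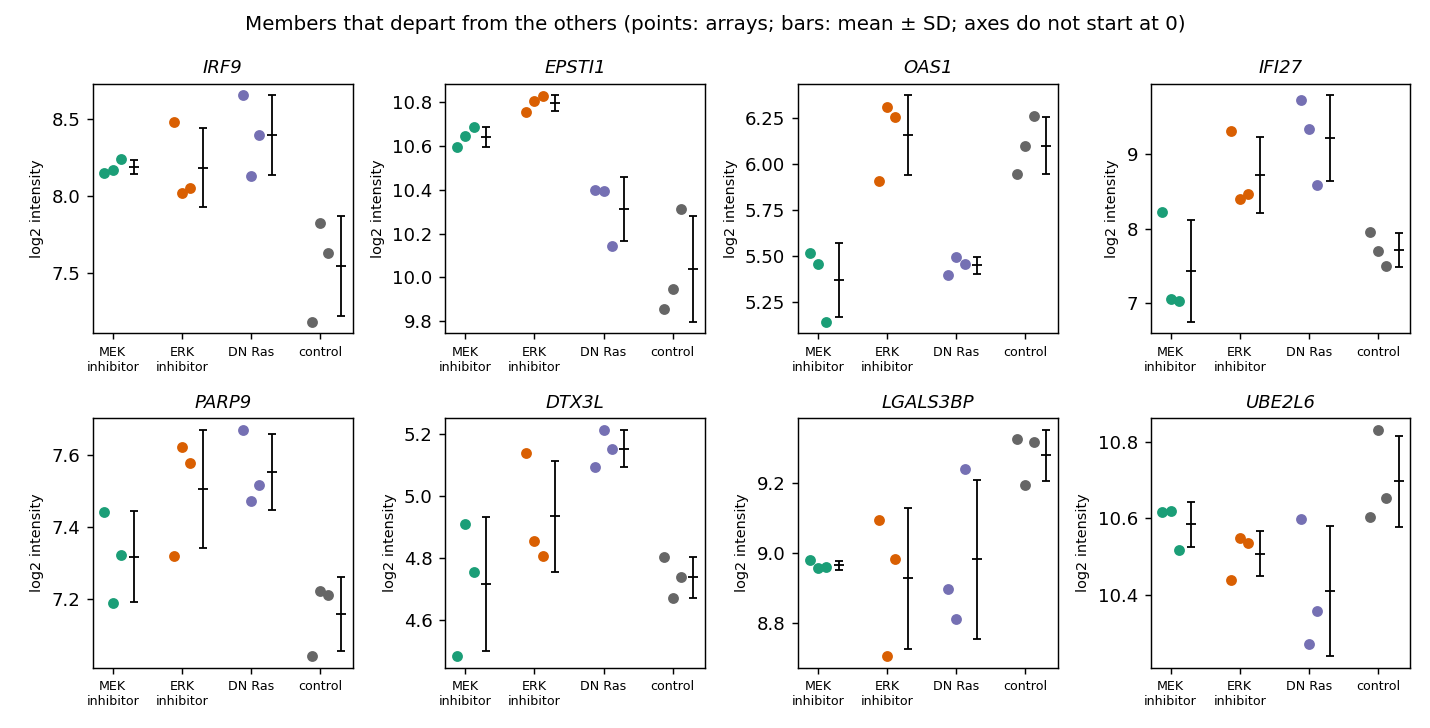
Log2 intensity on each of the 3 arrays per group (points) with mean ± SD (bars) for 8 members that depart from the rest. IRF9 and EPSTI1 lie above control with the MEK inhibitor, and OAS1 lies below it with the MEK inhibitor and dominant-negative Ras. IFI27, PARP9 and DTX3L have their highest mean in dominant-negative Ras cells, and LGALS3BP and UBE2L6 in control. DTX3L was kept through the dominant-negative Ras arrays alone, so the detection filter favours its order. PARP9 arrays overlap between dominant-negative Ras and the ERK inhibitor.

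By role, the share of members that rose with the ERK inhibitor ran from 4 of 5 sensors and transcription factors, 4 of 5 IFIT and viperin genes, 7 of 9 helicase-like, SAMD9 and PARP genes and 5 of 7 OAS, MX and PKR genes to 3 of 7 ISG15 and TRIM genes, 4 of 10 others and 1 of 4 membrane and vesicle genes, where 5.92% of all genes rose. Role medians were 1.28 for IFIT and viperin genes, 0.76 for the helicase-like group, 0.64 for sensors and factors and 0.13 for membrane and vesicle genes. The falls with the MEK inhibitor were in OAS1, OAS2, MX2, HERC6, TRIM25, DDX60 and ISG20. Of these, OAS2, MX2, HERC6, DDX60 and ISG20 rose with the ERK inhibitor. OAS2 was lost without MEK inhibitor replicate 2 (0.0635) or 3 (0.0548) or control replicate 2 (0.0519), and without background correction (0.0583). The number of falls was 1 without MEK inhibitor replicate 2, and 3 without MEK inhibitor replicate 3 or without control replicate 1, 2 or 3. The number of rises was 1 without MEK inhibitor replicate 2 or 3 or control replicate 1. OAS1 and EPSTI1 passed without any single array.

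With dominant-negative Ras the rises were in IFIH1, DHX58, IRF9, PARP9 and IFI27, and the fall was in OAS1. The count of 6 rises also holds DTX3L, which the detection filter favours. IFI27, IRF9 and OAS1 passed without any single array. IFIH1 lost its call without dominant-negative Ras replicate 2 (0.0775) or control replicate 1 (0.0565) or 2 (0.0537) or 3 (0.0505), and DHX58 without MEK inhibitor replicate 2 (0.0523), ERK inhibitor replicate 2 (0.0548), dominant-negative Ras replicate 2 (0.0832) or 3 (0.102) or control replicate 1 (0.154) or 3 (0.126). Scaling arrays to 1 median lost both calls (0.283 for IFIH1, 0.34 for DHX58), and that of DHX58 was also lost without background correction (0.0501), without a detection filter (0.051) and in a fit on the 2 groups alone (0.0796). The number of rises was 2 without dominant-negative Ras replicate 2, control replicate 1 or control replicate 3, and 3 without control replicate 2 or ERK inhibitor replicate 2. The number of falls was 4 without dominant-negative Ras replicate 1 and 2 without MEK inhibitor replicate 1, ERK inhibitor replicate 1 or ERK inhibitor replicate 3. With arrays scaled to 1 median, 2 members rose and 2 fell. That scaling left the median of all genes at −0.10 and the members' median at −0.01, or 0.09 relative to it. Without dominant-negative Ras replicate 3 the counts were 6 rises and 1 fall.

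With the ERK inhibitor, 22 of the 28 rises passed without any single array, and the other 6 were those of IRF9, OAS3, MX2, HERC6, PARP12 and SAMD9. Against the MEK inhibitor, 26 of 31 did so, all but TRIM25, SAMD9L, IFITM3, GBP1 and IFI27, and against dominant-negative Ras 22 of 27, all but IRF1, IFIT1, SAMD9, IFITM3 and EPSTI1. Against dominant-negative Ras, the other OAS1 probes gave 0.20 and 0.29 and the other XAF1 probe 0.47, and none of these passed. Against the MEK inhibitor, the other OAS1 probes gave 0.16, which did not pass, and 0.56, which did. The differences between the drugs were over 2 in ISG20 (2.32 ± 0.20), RSAD2 (2.31 ± 0.21, detected on 1 of 3 MEK inhibitor arrays), OASL (2.30 ± 0.22), OAS2 (2.27 ± 0.15) and IFI44 (2.24 ± 0.22), the last with limma adjusted p = 8.49e-06. Members that did not differ between the drugs in the test included IRF9, EPSTI1 (0.15 ± 0.13, 95% interval −0.12 to 0.43), PARP9 (0.19 ± 0.12, −0.07 to 0.45) and EIF2AK2 (0.08 ± 0.12, −0.17 to 0.34). Dominant-negative Ras cells exceeded MEK inhibitor cells in IFI27 (1.78 ± 0.32, limma adjusted p = 0.00579) and in IFIT1, OASL, IFI44, DDX60, IFIT3, OAS2 and DHX58, of which IFI27 alone passed without any single array. The IFIT3 call came from 1 of 3 probes: the other two gave 0.19 and 0.03, and the mean of all 3 gave 0.29 (adjusted p = 0.301). The other probe of OASL gave 0.59 (0.107) there.

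Other genes of the pathway were read from lists chosen with earlier results of these data known. Their counts stand beside these shares of all genes: 7.11% rose and 8.86% fell with the MEK inhibitor, 5.92% and 5.48% with the ERK inhibitor, and 5.81% and 6.45% with dominant-negative Ras. Interferon ligands and chemokines moved with the set: 6 of 6 measured rose with the ERK inhibitor, among them IFNB1 (3.03 ± 0.17), and 0 rose with the MEK inhibitor, where IFNL1, whose probe may read its near-identical relatives, changed by −0.92 ± 0.18, or with dominant-negative Ras. At an unadjusted p under 0.05, limma had 0 higher and 2 lower with the MEK inhibitor and 1 higher and 0 lower with dominant-negative Ras. At that threshold 13.8% of all genes were higher and 15.4% lower with the MEK inhibitor, and 13.7% and 13.8% with dominant-negative Ras. Among receptors and JAK-STAT genes, of 15 measured, 2 rose and 0 fell with the ERK inhibitor, 2 rose and 2 fell with the MEK inhibitor, and 2 rose and 2 fell with dominant-negative Ras, where 2 of 15 is 13.3%. At an unadjusted p under 0.05, limma had 2 lower with the ERK inhibitor, or 13.3%, beside 13.6% of all genes. STAT3 rose in all 3, by 0.57 ± 0.11 with the MEK inhibitor, 0.38 ± 0.11 with the ERK inhibitor and 0.78 ± 0.11 in dominant-negative Ras cells. JAK1, a kinase of the interferon receptors, rose by 0.64 ± 0.12 with the MEK inhibitor and 0.61 ± 0.12 with dominant-negative Ras, while JAK2 rose by 0.65 ± 0.12 with the ERK inhibitor. SOCS1, an inhibitor of JAK kinases, changed by −0.53 ± 0.16 with the MEK inhibitor and −0.72 ± 0.16 with dominant-negative Ras.

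Upstream of interferon, 2 of 13 measured nucleic acid sensing genes rose with the ERK inhibitor and 1 fell. RIGI, the sensor of short double-stranded RNA, rose by 1.31 ± 0.21 (limma adjusted p = 0.000868) and STING1, the adaptor of DNA sensing, by 1.05 ± 0.19 (0.00206). With the MEK inhibitor 1 rose and 3 fell, and with dominant-negative Ras 0 rose and 3 fell, where 3 of 13 is 23.1% beside 8.86% and 6.45% of all genes. At an unadjusted p under 0.05 in limma, 0 were also higher with dominant-negative Ras, where 13.7% of all genes were. The kinase gene IKBKE changed by −1.32 ± 0.14 with the MEK inhibitor and −0.65 ± 0.14 with dominant-negative Ras, the adaptor gene TICAM1 by −0.90 ± 0.16 and −0.64 ± 0.16, and the DNA sensor gene AIM2 by −1.34 ± 0.16 and −0.92 ± 0.16, and by −0.69 ± 0.16 with the ERK inhibitor. Against the MEK inhibitor, 5 of 13 were higher with the ERK inhibitor and 0 lower, where 6.69% and 3.52% of all genes were. IKBKE differed by 1.12 ± 0.14 in that comparison (limma adjusted p = 7.28e-05).

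In 44 further interferon-stimulated genes outside the set, 10 rose and 0 fell with the ERK inhibitor, 3 rose and 3 fell with the MEK inhibitor, and 3 rose and 2 fell with dominant-negative Ras. The 10 were 22.7%, beside 5.92% of all genes, and the 3 each way with the MEK inhibitor were 6.82%, beside 7.11% and 8.86%. At an unadjusted p under 0.05, limma had 1 lower with the ERK inhibitor, or 2.27%, beside 13.6% of all genes. Their median with the ERK inhibitor was 0.20, against 0.64 for the 47 members. ZNFX1, a helicase that binds viral RNA, rose by 1.22 ± 0.12 with the ERK inhibitor (limma adjusted p = 1.09e-05). GBP4 was detected on no control array and was at least 2.78-fold higher with the ERK inhibitor. It entered the fit through inhibited groups alone, so the filter favours its call, which is counted among the 10, and its p-value is not read as a result. The cytokine gene IL15 and the lysosomal gene LAMP3 rose by 0.76 ± 0.15 and 0.97 ± 0.20. With the MEK inhibitor and dominant-negative Ras, LY6E changed by −0.74 ± 0.12 and −0.76 ± 0.12. IFITM2, a close relative of IFITM3, changed by −0.44 ± 0.14 with the MEK inhibitor (limma adjusted p = 0.0381) and −0.51 ± 0.14 with dominant-negative Ras (0.0236).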

How the data were processed

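Total RNA of 12 samples was hybridised to Illumina bead arrays, 1 array per sample, per the labels' protocols. The authors deposited, per the file headers, the mean bead intensity of 47322 probes with a detection p-value (steps of 1 in 770) and bead numbers. The lowest of these intensities lie well above 0, and their minima and medians differ between arrays. The submitters' processing notes name GenomeStudio, with no settings. A further deposited table holds processed intensity values of 47317 probes, with shared quantiles and values below 0, and served as an alternative.

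Intensities were corrected and quantile-normalized with limma 3.58.1 (neqc method, offset 16) in R 4.3.3 and put on the log2 scale. Quantiles remove a change shared by most genes. Of the probes, 30112 had 1 gene symbol, 8 several and 17202 none in the platform annotation, which can be old. A detection p under 0.01 on all 3 arrays of any group kept 17099 probes, 13885 with a symbol, for 10532 genes. lmFit and eBayes were fitted over 4 group means with all 12 arrays, with Benjamini-Hochberg adjustment. Replicate samples came from separate experiments on 1 cell line. A level detected on no array of a group gives a bound: the brighter mean against the higher, per array, of the gene's value and the lowest detected value.

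The members and lists were chosen with earlier results of these data known. Values per array are given for the 8 members with the smallest adjusted p with the ERK inhibitor, for those that passed with the MEK inhibitor or dominant-negative Ras, and for those detected throughout that did not pass with the ERK inhibitor. Values of HERC5 were added after they were seen. The fit was tested on simulated data. Promoter sequences are RefSeq's (GRCh38.p14). Alternatives were the scaling, the second table, background correction, detection filter, mean of probes, groups in the fit, replicate block and leaving out each array. No slide was given, so the slide block was not run.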

Additional observations from a re-analysis of the deposited data

How the results depend on the processing

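The numbers of members higher and lower with the ERK inhibitor, against each other group, stayed within 1.5 times of those reported under every alternative. Arrays scaled to 1 median gave 0 members higher with the MEK inhibitor, and 2 higher and 2 lower with dominant-negative Ras, each against control. Under that scaling the all-gene median moved to −0.12 with the MEK inhibitor, 0.12 with the ERK inhibitor and −0.10 in dominant-negative Ras cells, and the members' medians relative to these at −0.19, 0.64 and 0.09. Of all genes called with the MEK inhibitor, 254 were then higher and 882 lower, against 749 and 933 before; with the ERK inhibitor 630 and 117, against 624 and 577; with dominant-negative Ras 166 and 552, against 612 and 679. Fits on the 2 groups compared gave 3 higher and 2 lower with dominant-negative Ras against control and 1 higher against the MEK inhibitor. Without background correction 2 were lower with dominant-negative Ras, and without a detection filter 4 were higher than with the MEK inhibitor. The cause was not tested.

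Leaving out each array in turn gave 1 to 3 members higher and 1 to 8 lower with the MEK inhibitor, 24 to 29 and 0 with the ERK inhibitor, and 2 to 6 and 1 to 4 with dominant-negative Ras. Between groups it gave 26 to 31 higher with the ERK inhibitor than with the MEK inhibitor, 23 to 27 higher than with dominant-negative Ras, and 1 to 14 higher with dominant-negative Ras than with the MEK inhibitor, with 0 lower in each.

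The titles share replicate numbers, which no label ties to an experiment, and same-numbered arrays did not deviate together throughout: 9 of 18 pairs had a correlation over 0.1 (−0.19 to 0.33), and 5 of 12 arrays correlated best with their own number. With the replicate block, 4 members were higher and 3 lower with dominant-negative Ras. PARP9 lost its call there (limma adjusted p = 0.0553), and DTX3L, which the detection filter favours, also left the count. With the block, 29 were higher with the ERK inhibitor, and 2 were higher and 8 lower with the MEK inhibitor. IFI27 then passed with the ERK inhibitor (0.00206), and IFITM3 with the MEK inhibitor (0.0325) and dominant-negative Ras (0.0295). 3 arrays per group and weak signals near background (IFI44L, DTX3L, MX2) limit what can be told.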
